A study of Homo sapiens with 4 samples.

Results

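Alternative promoters that were called accessible in only 1 of a pair of related prostate cancer cell lines are described here. Among 33609 promoters of 19689 protein-coding genes, 992 were such promoters, and they lay in 905 genes. They were selected on presence or absence in the peak lists themselves. A promoter was a run of annotated transcription start sites (TSSs) of a gene less than 2000 bp apart. It counted as open in a list when a peak interval reached within 500 bp of any of those TSSs. A member was open in 1 list only and belonged to a gene with at least 1 other promoter that was open in both lists. That other promoter is called the partner, and where a gene had several the nearest was taken.

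The assay was ATAC-seq, which uses the Tn5 transposase to cut accessible DNA and tag it for sequencing. C4-2B is a prostate adenocarcinoma line, and the study describes the parents of its NE-like (neuroendocrine-like) models as castration-resistant. C4-2BER is the NE-like line obtained when C4-2B cells were kept under enzalutamide, an inhibitor of androgen signalling. The 2 libraries of a line were pooled by the authors ahead of peak calling, so there was 1 peak list per line and no replicate error for any value. C4-2BER is a single derived line, and its drug history cannot be told apart from its state.

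Many human genes have more than 1 promoter. The choice between them changes the first exon of the RNA, and where the coding start moves it also changes the N-terminus of the protein. CpG-rich promoters are typically active in many cell types, whereas CpG-poor promoters are more often restricted to a tissue. ATAC-seq shows that chromatin at a TSS is accessible and does not show which RNA is made there.

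The C4-2B list held 149676 intervals at a recovered depth of 30.2 M reads, and the C4-2BER list held 118728 intervals at 25.2 M reads, a ratio of 1.20. Reads at a summit are not scaled between the lists, so a site of equal accessibility would have 1.20 times as many in C4-2B. The weakest called summits had 8 reads (C4-2B) and 7 reads (C4-2BER), and the calling limit rises with the local background. A promoter that is absent from a list was below the calling limit of that list and was not shown to be closed. The main promoters of the prostate luminal markers KLK3, KLK2, HOXB13, FOXA1, KRT8 and KRT18 were open in both lists. At KLK3 the summit had 171 reads in C4-2B against 45 in C4-2BER. The other 5, in the order named, had 136, 105, 139, 141 and 174 reads in C4-2B. In C4-2BER they had 102, 103, 130, 148 and 108. Of the neuroendocrine markers, CHGA, CHGB, SYP, ENO2 and NCAM1 were open in both, and INSM1 (26 reads at the summit) was open in C4-2BER only. The main promoters of 5 of 5 leukocyte markers were open in neither list.

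Of all promoters, 16144 (48.0%) were open in both lists and 15107 (44.9%) in neither. Open in C4-2B only were 946 (2.81%), and open in C4-2BER only were 1412 (4.20%). A total of 6571 genes were eligible, with 2 or more promoters of which at least 1 was open in both lists. Among their 18573 promoters, 505 (2.72%) were open in C4-2B only and 487 (2.62%) in C4-2BER only. The rule used these calls, so the shares are a description. In the other genes, the numbers were 441 for C4-2B and 925 for C4-2BER. Thus the C4-2BER-only promoters outnumbered the C4-2B-only promoters outside the eligible genes, whereas the numbers within them were nearly even. That balance depended on how the lists were cut. With C4-2B scaled to the depth of C4-2BER it was 497 C4-2B-only against 489 C4-2BER-only members. With a −log10 q of at least 5 in both lists it was 472 against 424. With equal numbers of top peaks in each list it was 322 C4-2B-only against 592 C4-2BER-only members, with a −log10 q of at least 10 in both lists 450 against 320, and with basic transcripts of support level 1 alone 67 against 118. In genes with a single promoter, 235 of 11770 were open in C4-2B only and 562 in C4-2BER only.

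The 505 C4-2B-only members lay in 483 genes and the 487 C4-2BER-only members in 457 genes. In 830 genes there was exactly 1 member, in 40 genes there were 2 or more in the same direction, and 35 genes had members in both directions.

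The stretch just upstream of a TSS gives the base composition and consensus matches at the annotated start of a member. Sequences of 200 bases upstream of the TSS nearest the summit are given for strong members, chosen among the 10 with the highest −log10 q in each direction that had no interval of the other list within 2000 bp, and free of any annotated exon. All are read 5′ to 3′ on the strand of the gene from hg38, with each CpG dinucleotide in capitals. The first belong to C4-2B-only members, in TTR (chr18:31575860-31576059, plus strand) and PITHD1 (chr1:23784992-23785191, plus strand). They hold 0 and 1 CpG, with a GC content of 40.0% and 38.0%.
TTR: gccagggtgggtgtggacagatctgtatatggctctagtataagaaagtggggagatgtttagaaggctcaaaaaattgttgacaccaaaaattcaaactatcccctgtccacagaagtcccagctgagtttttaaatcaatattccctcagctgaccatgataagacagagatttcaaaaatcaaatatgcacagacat
PITHD1: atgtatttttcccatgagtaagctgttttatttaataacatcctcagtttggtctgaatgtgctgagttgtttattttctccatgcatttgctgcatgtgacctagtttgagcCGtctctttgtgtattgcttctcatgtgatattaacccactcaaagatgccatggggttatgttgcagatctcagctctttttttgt

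The others belong to C4-2BER-only members, in MCCC2 (chr5:71587076-71587275, plus strand), TLDC2 (chr20:36875921-36876120, plus strand) and PRX (chr19:40398817-40399016, minus strand). They hold 22, 5 and 16 CpGs, with a GC content of 67.0%, 57.5% and 64.0%. Some sequences that the rule picks are not shown, so those shown are examples and do not compare the directions.
MCCC2: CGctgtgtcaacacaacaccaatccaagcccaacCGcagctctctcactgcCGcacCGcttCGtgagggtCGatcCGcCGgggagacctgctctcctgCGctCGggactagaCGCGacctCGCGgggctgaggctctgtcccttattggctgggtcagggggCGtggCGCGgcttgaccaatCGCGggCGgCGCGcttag
TLDC2: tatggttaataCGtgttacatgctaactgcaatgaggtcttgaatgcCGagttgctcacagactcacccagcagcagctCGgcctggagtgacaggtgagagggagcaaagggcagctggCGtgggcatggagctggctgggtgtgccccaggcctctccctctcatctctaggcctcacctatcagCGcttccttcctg
PRX: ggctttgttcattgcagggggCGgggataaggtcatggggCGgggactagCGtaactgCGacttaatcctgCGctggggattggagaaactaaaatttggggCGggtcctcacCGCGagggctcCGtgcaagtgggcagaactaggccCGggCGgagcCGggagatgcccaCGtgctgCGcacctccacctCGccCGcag

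The stretch before MCCC2 holds 3 CCAAT boxes (CCAAT), and that before PRX holds 3 matches to the SP/KLF consensus GGGCGGG and 1 CCAAT box. The stretch before TTR holds 2 matches to the E-box CAGCTG, and that before TLDC2 holds 1. Those of the C4-2B-only members shown hold no match to SP/KLF or CCAAT, and neither does that of the C4-2BER-only member in TLDC2. These matches are letters in a window. Within 100 bp of the TSS, 25.5% of all promoters hold the SP/KLF consensus, 24.8% CCAAT and 14.1% CAGCTG.

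The peak values of the members are those that chose them and are given as a description. At C4-2B-only members the strongest summit held a median of 24 reads (quartiles 15 and 42, range 8 to 180), against a median of 113 reads in the same list at promoters of eligible genes that were open in both. At C4-2BER-only members the median was 22 reads (quartiles 14 and 38, range 7 to 121), against 101 reads. Both sets were therefore low beside promoters open in both, whereas the median over a whole list was 29 reads (C4-2B) and 23 reads (C4-2BER). By −log10 p, their median rank percentile was 32.2 in the C4-2B list and 42 in the C4-2BER list, whereas promoters open in both had a median rank of 90.1 and 91.5. Member intervals were also narrower, with a median width of 305 bp and 334 bp against 976 bp and 1049 bp.

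The partner was stronger than the member in most genes. It held more reads in the same list at 456 of 505 C4-2B-only members (90.3%, Wilson 95% confidence interval 87.4 to 92.6) and at 420 of 487 C4-2BER-only members (86.2%, 82.9 to 89.0). The member held a median of 27.8% and 35.1% of the reads of its partner.

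**Figure D1:**
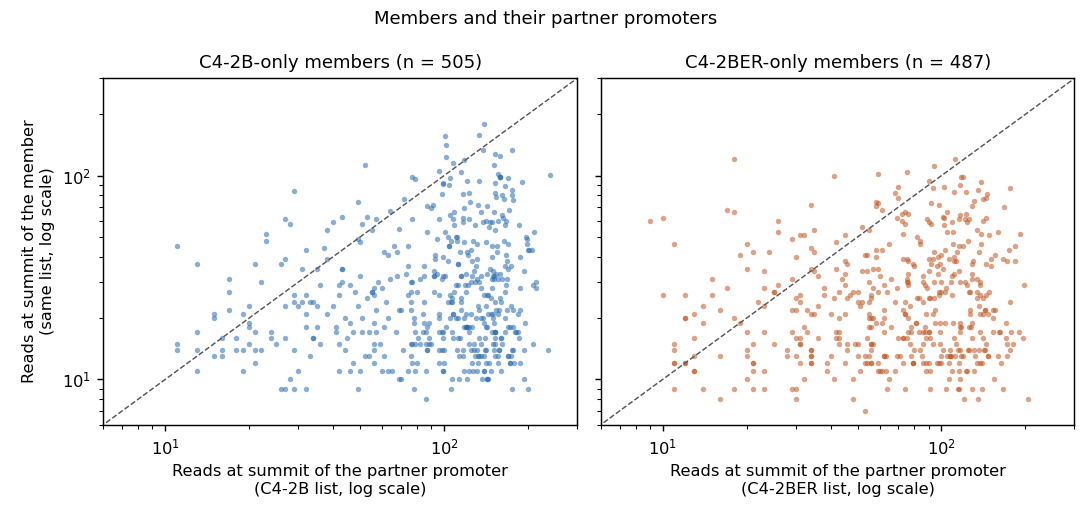
Reads at the summit of each member (vertical axis, log scale) against reads at the summit of its partner promoter in the same list (horizontal axis, log scale), with C4-2B-only members on the left and C4-2BER-only members on the right. Each point is a member and the dashed line marks equal reads, and most points lie below it, with the partner stronger at 90.3% and 86.2% of members. The rule favours this order, because partners had to be called in both lists.

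Among members with no interval of the other list within 2000 bp, the strongest in C4-2B was in NAGLU (ENSG00000108784), which encodes a lysosomal enzyme that degrades heparan sulfate. Its second promoter, 4850 bp downstream of the first, had 141 reads at the summit and a −log10 q of 82.1 at chr17:42541171-42541884. The NAGLU partner had 102 reads in C4-2B against 108 in C4-2BER, and its rank percentile was 83.4 and 91.1. The nearest C4-2BER interval was 3989 bp from a TSS of the member. The member interval itself did not cover a TSS and lay 80 bp from the nearest one.

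The second was in C2, a component of the complement cascade, with 113 reads and a −log10 q of 77.7 at chr6:31919452-31920361. Its partner had only 52 reads in C4-2B against 44 in C4-2BER, and the nearest C4-2BER interval was 17254 bp away. CPVL, a serine carboxypeptidase gene, was of the same kind, with 84 reads at its last promoter (−log10 q 75.3) against 29 reads in C4-2B against 23 in C4-2BER at the partner. At both genes the member was stronger than its partner in C4-2B.

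RNF157, which encodes an E3 ubiquitin ligase, had a C4-2B-only member of 97 reads (−log10 q 76.7) that lay 84237 bp downstream of its main promoter. FANCI, a gene of DNA crosslink repair, had one of 80 reads (−log10 q 70.6) 17859 bp downstream. The FANCI interval did not cover a TSS and lay 357 bp from the nearest one. At these genes the main promoter was also strong, with 105 and 161 reads (C4-2B) and 83 and 128 reads (C4-2BER).

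In TTR (transthyretin, a plasma carrier of thyroid hormone), the member lay 15817 bp upstream of the partner and had 74 reads (−log10 q 61.8). The TTR partner had 49 reads in C4-2B against 12 in C4-2BER. RPRD1B, whose product binds RNA polymerase II, showed a like pattern, with 58 reads at the member (−log10 q 55.1) and with 51 and 9 reads at the partner. In both genes the partner was also lower in C4-2BER. The TTR partner was the canonical start. That of RPRD1B was not, and another promoter of RPRD1B was also open in both lists. CIAO3, a gene of cytosolic iron-sulfur protein assembly, had a member of 115 reads (−log10 q 54.6), and PITHD1 had one of 77 reads (−log10 q 53.7). Their partners had 108 and 72 reads in C4-2B, against 85 and 82 in C4-2BER.

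In C4-2BER the strongest member was in TRPM4 (ENSG00000130529), which encodes a calcium-activated cation channel. Its second promoter had 121 reads and a −log10 q of 81.9 at chr19:49210137-49210928. It was CpG-rich and lay 52942 bp downstream of the main promoter, which had 118 reads in C4-2B against 112 in C4-2BER. The nearest C4-2B interval was 2105 bp away.

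MCCC2 encodes a subunit of methylcrotonyl-CoA carboxylase, an enzyme of leucine breakdown. Here the member was the first promoter of the gene, from which the canonical transcript starts, with 104 reads (−log10 q 74.7) at chr5:71586763-71587707. The partner, the only other promoter of the gene, lay 44781 bp downstream, with 102 reads in C4-2B against 75 in C4-2BER. This is the stretch of 22 CpGs shown above.

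The canonical start was also the C4-2BER-only member in TLDC2, with 78 reads (−log10 q 58.4), and in FMN1, a formin that nucleates actin filaments, with 62 reads (−log10 q 51.5). The FMN1 partner, 75333 bp downstream, had 27 reads in C4-2B against 10 in C4-2BER, so within this gene the downstream site was higher in C4-2B and the first promoter was called in C4-2BER only. SP140L, of the nuclear body protein family, had a member of 60 reads (−log10 q 56.0) and a partner of 25 and 9 reads, again lower in C4-2BER.

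PRKCH, which encodes protein kinase C eta, had a CpG-rich member of 88 reads (−log10 q 69.1) that lay 40626 bp upstream of its main promoter. PRX encodes periaxin, a protein of peripheral myelin, and its member of 87 reads (−log10 q 51.8) was also CpG-rich. ASAH1 (acid ceramidase) had a member of 62 reads, TTYH3 one of 93 and CLHC1 one of 70, with −log10 q values of 58.9, 52.6 and 51.5. In these 3 genes the interval did not cover a TSS and lay 469, 432 and 345 bp from the nearest one.

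Sequence around the TSS, which the rule did not use, differed between the directions. A promoter was called CpG-rich when the 500 bp either side of its main TSS had a GC content of at least 50% and an observed over expected CpG ratio of at least 0.6. Of the C4-2B-only members, 25 of 505 were CpG-rich (4.95%, 3.38 to 7.21). Of the C4-2BER-only members, 132 of 487 were CpG-rich (27.1%, 23.3 to 31.2), and these intervals do not overlap. In the same class of genes, 72.2% of promoters open in both lists and 2.60% of promoters open in neither were CpG-rich, against 42.1% of all promoters. C4-2B-only members thus lay little above the level of unopened promoters, and C4-2BER-only members lay between the unopened and the open ones. Their median GC content was 48.7% and 54.1%, and their median CpG ratio 0.251 and 0.379. The partners were mostly CpG-rich in both directions (71.1% and 61.4%).

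Members also differed in what the annotation places there. The Ensembl canonical transcript of the gene started at 29 C4-2B-only members (5.74%, 4.03 to 8.13) and at 116 C4-2BER-only members (23.8%, 20.3 to 27.8). It started at 70.8% of promoters open in both and at 4.21% of those open in neither. A single transcript accounted for 344 C4-2B-only members (68.1%, 63.9 to 72.0) and 258 C4-2BER-only members (53.0%, 48.5 to 57.4). No transcript of the GENCODE basic set started at 52.7% of C4-2B-only members and at 31.0% of C4-2BER-only members. Therefore many members, more of those in C4-2B, rest on a single minor transcript model.

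**Figure D2:**
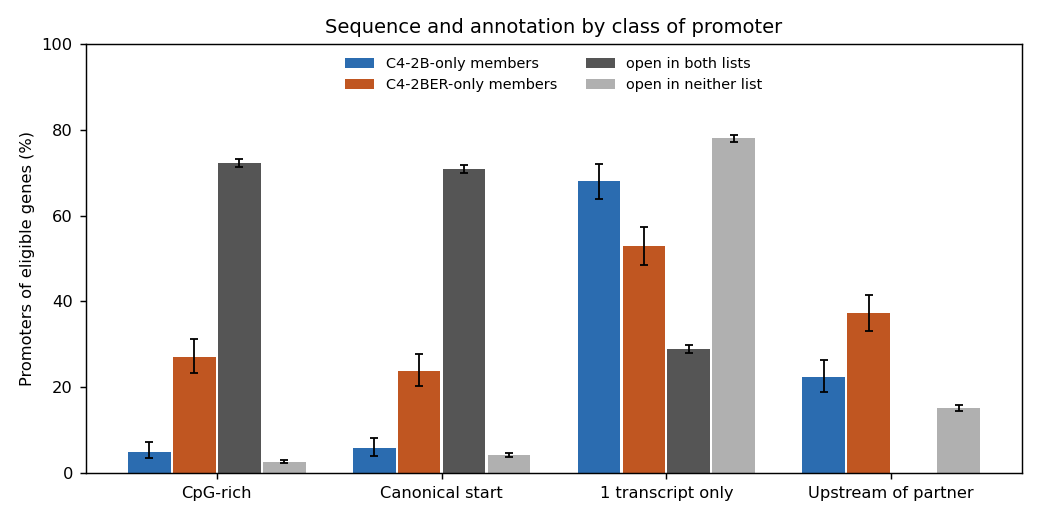
Share of promoters of eligible genes (vertical axis, %) that are CpG-rich, hold the start of the canonical transcript, have 1 transcript only, or lie upstream of the nearest promoter open in both lists. Bars are the members of each direction and the promoters open in both lists or in neither, error bars are Wilson 95% intervals, and the C4-2BER-only members stand above the C4-2B-only members in CpG-rich share (27.1% against 4.95%) and in canonical starts (23.8% against 5.74%). The upstream share has no bar for promoters open in both lists, which are themselves the partners.

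Most members lay downstream of their partner, within the gene body. The share that lay upstream was 22.4% (19.0 to 26.2) for C4-2B-only members and 37.2% (33.0 to 41.5) for C4-2BER-only members, against 15.1% of promoters open in neither. The median distance to the partner was 20704 bp and 27302 bp. A distance of 50000 bp or more was found for 25.9% of the former and 37.6% of the latter.

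The summit fell in an intron at 60.8% and 54.6% of members and in an exon at 34.5% and 34.9%. It fell between genes at 4.75% and 10.5%. The strongest interval covered a TSS of the promoter at 194 C4-2B-only members (38.4%, 34.3 to 42.7) and at 313 C4-2BER-only members (64.3%, 59.9 to 68.4). At the other members it lay within 500 bp of a TSS without reaching one, which is marked for some of the named members only. A TSS of another protein-coding gene was within 500 bp of the interval at 9 and 22 members. Where both coding starts are annotated, the transcripts of the member had a coding start of their own, other than that of the partner, at 157 of 353 C4-2B-only members (44.5%, 39.4 to 49.7) and at 229 of 418 C4-2BER-only members (54.8%, 50.0 to 59.5).

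The difference in CpG content was present in members with the firmest calls. These were members whose interval covered a TSS, whose −log10 q was at least 10 and which had no interval of the other list within 2000 bp, a subset set after the data were seen. It held 74 C4-2B-only members, of which 1 was CpG-rich (1.35%, 0.239 to 7.27), and 110 C4-2BER-only members, of which 42 were (38.2%, 29.6 to 47.5). The canonical transcript started at 4 and 38 of them.

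The 116 C4-2BER-only members at a canonical start are those at which the main annotated promoter was called in C4-2BER and not in C4-2B. Of these, 62 were CpG-rich (53.4%, 44.4 to 62.3) and 81 had no C4-2B interval within 2000 bp. After MCCC2, TLDC2 and FMN1, those of high −log10 q (named after their values were seen) included MOV10L1 with 65 reads, SPRY3 with 54, NHSL1 with 64, SARM1 with 77, LMO7 with 62, GATM with 42 and TPM1 with 46. A C4-2B interval lay 883 bp from a TSS at MOV10L1 and 1109 bp at SARM1. SPRY3 encodes a Sprouty inhibitor of receptor tyrosine kinase signalling, SARM1 an NAD hydrolase of axon degeneration and GATM an enzyme of creatine synthesis. The SPRY3 partner, 155226 bp downstream of the member, lies in a region shared by the X and Y chromosomes. Reads at that partner therefore cannot be placed with certainty. The TSS of 1 other gene lay within 500 bp of the SPRY3 member interval.

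Among the 29 C4-2B-only members at a canonical start, 8 were CpG-rich (27.6%, 14.7 to 45.7) and 22 lay upstream of the partner. The highest (also named after their values were seen) was in ZBTB38, which encodes a zinc finger protein that binds methylated DNA, with 69 reads and a −log10 q of 37.1. The next were in CBFA2T3, a transcriptional corepressor, with 61 reads, NLGN4X, a neuroligin, with 31, and LCP1, the actin-bundling L-plastin, with 29. In SLC12A5, the neuronal potassium-chloride cotransporter, a member of 37 reads was CpG-rich. The SLC12A5 partner had 21 reads in C4-2B against 111 in C4-2BER. The intervals in SLC12A5 and LCP1 did not cover a TSS and lay 192 and 361 bp from the nearest one.

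Consensus matches within 100 bp of the member summit were compared on both strands for 20 motifs, without a test. At C4-2B-only members, the forkhead consensus TGTTTAC was found at 41 of 505 summits (8.12%, 6.04 to 10.8), against 21 of 487 at C4-2BER-only members (4.31%, 2.84 to 6.50). At promoters open in both it was found at 2.44% of summits in the C4-2B list and at 2.20% in the C4-2BER list, and among all intervals at 9.79% and 7.48%. The intervals of the member shares overlap at their ends, and the difference was not tested. Forkhead factors such as FOXA1 open chromatin in luminal prostate cells.

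The steroid receptor core AGAACA was at 99 C4-2B-only summits (19.6%, 16.4 to 23.3) and at 42 C4-2BER-only summits (8.62%, 6.44 to 11.5). It was at 5.84% and 5.27% of summits at promoters open in both, and at 18.1% and 14.3% of all intervals. C4-2B-only members were thus close to the list as a whole in these motifs, and not to promoters open in both. The nuclear receptor core AGGTCA was at 15.0% (12.2 to 18.4) and 9.03% (6.80 to 11.9), the GATA factor consensus AGATAA at 11.3% (8.81 to 14.3) and 6.37% (4.52 to 8.89), and the AP-1 consensus TGANTCA at 11.9% (9.34 to 15.0) and 6.98% (5.04 to 9.60). Of these, AGATAA and TGANTCA have intervals that overlap at their ends.

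The opposite order was found for GC-rich motifs. GGGCGGG (SP/KLF) was at 25 C4-2B-only summits (4.95%, 3.38 to 7.21) and at 112 C4-2BER-only summits (23.0%, 19.5 to 26.9), against 44.9% and 45.9% at promoters open in both. The CTCF core AGGGGGC was at 3.56% (2.27 to 5.56) and 10.1% (7.69 to 13.1). The intervals of the directions overlapped for the E-box CAGCTG (16.4% and 15.8%), for CCAAT (25.1% and 23.8%), for the ETS consensus CCGGAAG (1.98% and 2.46%), for the HNF1 core GTTAAT (3.56% and 6.16%) and for the PAX core GCGTGAC (0.792% and 1.44%). They also overlapped for the other 8 motifs, which were CRE, TATA box, PBX-HOX, HNF4, TEAD, NRF1, SOX and homeobox.

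Base composition moved with these motifs, since the 201 bp around the summit had a median GC content of 50.2% at C4-2B-only and 58.7% at C4-2BER-only members. Within members that were not CpG-rich, AGAACA was at 19.8% (16.5 to 23.6) of summits in the C4-2B direction and 11.0% (8.14 to 14.7) in the other, and GGGCGGG at 4.38% (2.88 to 6.60) and 13.5% (10.4 to 17.5). There TGTTTAC was at 8.54% (6.36 to 11.4) and 5.92% (3.90 to 8.87), with intervals that overlap, as they do for AGATAA and TGANTCA. They also overlap there for AGGTCA, at 15.8% (12.8 to 19.4) and 10.4% (7.66 to 14.0), and for the CTCF core, at 3.75% (2.39 to 5.85) and 8.17% (5.75 to 11.5). The part of base composition in the motif shares was not tested.

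**Figure D3:**
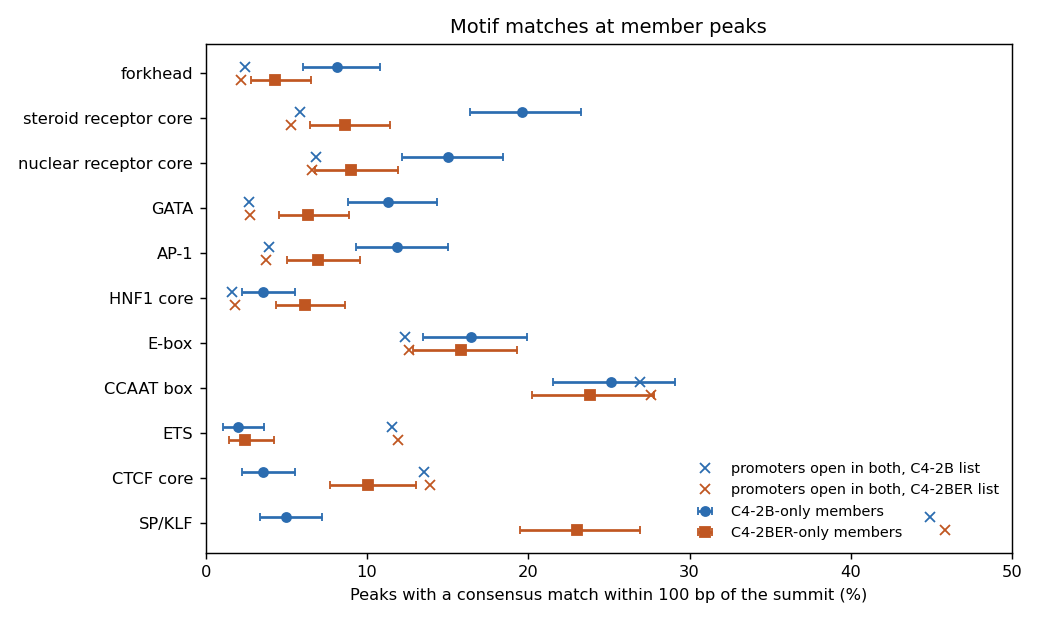
Share of peaks with a consensus match within 100 bp of the summit (horizontal axis, %) for 11 motifs, with members of each direction as points with Wilson 95% intervals and promoters open in both lists as crosses. The steroid receptor core is higher at C4-2B-only members (19.6% against 8.62%), whereas SP/KLF is higher at C4-2BER-only members (23.0% against 4.95%).

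The 35 genes with members in both directions are those in which one alternative promoter was called in each line. The 10 with the highest values in their weaker direction were taken. GRAMD1B, which encodes a cholesterol transfer protein, had 10 promoters, numbered from the 5′ end. Its second, the canonical start, had 42 reads (−log10 q 20.2) in C4-2BER only, and promoter 6 had 26 reads there. Promoter 8 had 52 reads (−log10 q 36.6) in C4-2B only, but this interval overlapped a C4-2BER interval that stopped 641 bp from the TSS. A C4-2B interval was 633 and 798 bp from promoters 2 and 6. Promoters 1, 3 and 7 were open in both, with 24, 46 and 23 reads in the C4-2B list against 38, 21 and 12 in the C4-2BER list.

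TNS3, a tensin that links focal adhesions to actin, had 7 promoters. The first, its canonical start, had 31 reads (−log10 q 14.1) in C4-2BER only. Promoters 2, 3, 4 and 7 were open in C4-2B only, with 61, 39, 23 and 27 reads, and promoters 5 and 6 in both. The intervals at promoters 2, 3 and 7 did not cover a TSS and lay 101, 425 and 465 bp from the nearest one. CPVL also had its canonical start, the second of 5 promoters, in C4-2BER only (28 reads, −log10 q 16.4), with a C4-2B interval 512 bp away, and the last in C4-2B only (84 reads).

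ZBTB38 and LGR6, the latter encoding an R-spondin receptor of Wnt signalling, ran the other way. In ZBTB38 the canonical start had 69 reads in C4-2B only, and promoter 3 of 7 had 23 reads (−log10 q 12.1) in C4-2BER only. In LGR6 the canonical start had 39 reads (−log10 q 11.7) in C4-2B only, and promoter 3 of 4 had 32 reads (−log10 q 13.5) in C4-2BER only. Its C4-2B-only member had a C4-2BER interval 652 bp away.

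In the other genes the canonical promoter was open in both lists and the members lay downstream of it. DLG2, a postsynaptic scaffold gene of 11 promoters, had 61 reads at promoter 10 in C4-2B only and 17 reads at promoter 4 in C4-2BER only. The interval at promoter 10, which lay 181 bp from the nearest TSS without covering it, overlapped a C4-2BER interval 545 bp from the TSS. The canonical DLG2 promoter had 165 reads in C4-2B against 161 in C4-2BER. GSN (gelsolin, which severs actin filaments) had 29 reads at promoter 3 in C4-2B only, and 30 and 13 reads at promoters 4 and 5 in C4-2BER only. The interval at promoter 4 overlapped a C4-2B interval 548 bp from the TSS. PTPN21, a tyrosine phosphatase gene, had 30 reads at the last promoter in C4-2B only and 41 at the second in C4-2BER only. RHOT1 (a mitochondrial GTPase) had a C4-2B-only member of 19 reads and a C4-2BER-only member of 18, and the interval of the latter overlapped a C4-2B interval 546 bp from the TSS.

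In SBNO2 the C4-2B-only member had 96 reads but a −log10 q of only 10.2, and the C4-2BER-only member had 33 reads with a −log10 q of 12.7. A C4-2BER interval lay 768 bp from the former. Reads at a summit and −log10 q can part in this way because the second is set against the local background.

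**Figure D4:**
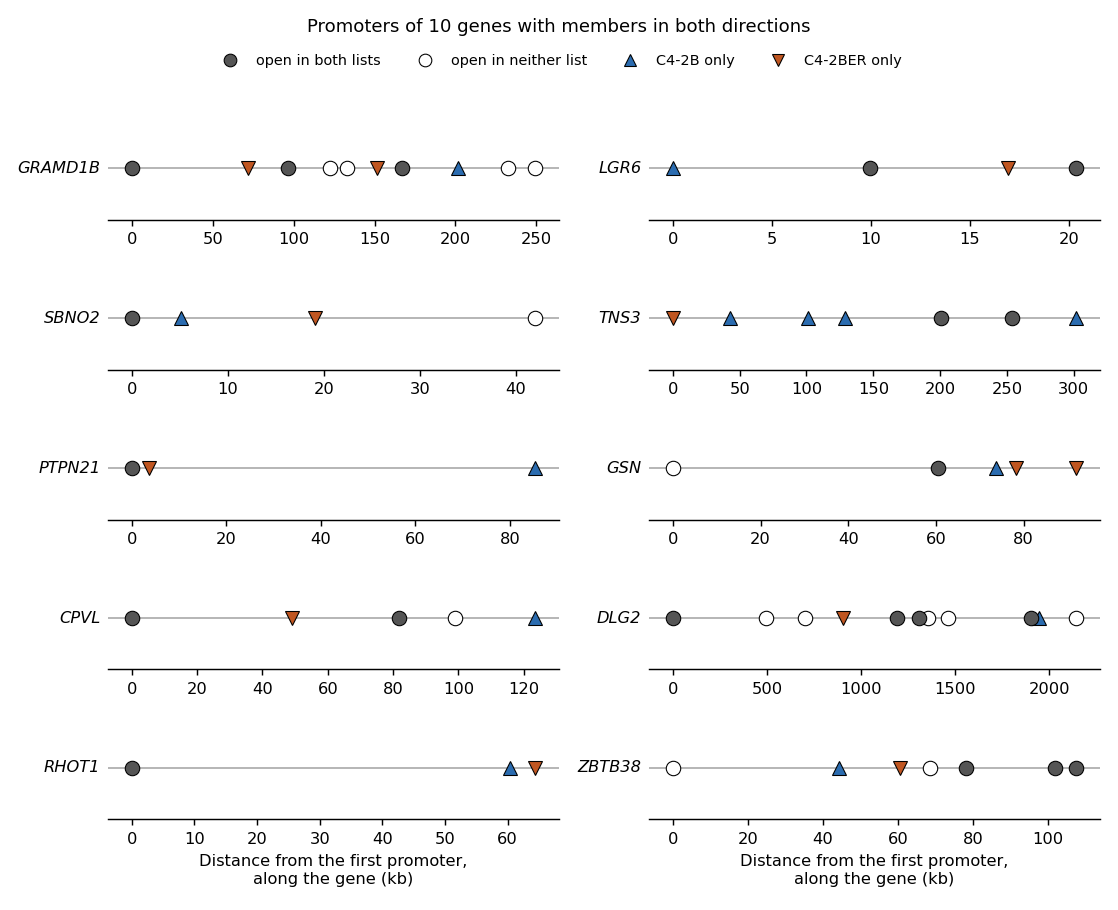
Promoters of the 10 genes with members in both directions by their distance from the first promoter along the gene (horizontal axis, kb, drawn to a scale of its own for each gene). Upward triangles are open in C4-2B only, downward triangles in C4-2BER only, filled circles in both lists and open circles in neither, and TNS3 has 4 C4-2B-only members downstream of a first promoter open in C4-2BER only.

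Genes were grouped in lists written with earlier results of these data known, so no list is independent evidence. Counts are of eligible genes with a member, and shares are of their promoters, because the listed genes had 2.82 to 4.92 promoters per gene against 2.83 over all eligible genes. Over all of these, 2.72% (2.49 to 2.96) of promoters were C4-2B-only members and 2.62% (2.40 to 2.86) were C4-2BER-only members.

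Cytoskeleton and scaffold genes had the most members. Of 76 eligible genes, 11 had a C4-2B-only and 21 a C4-2BER-only member, which is 15 and 25 of 374 promoters (4.01%, 2.45 to 6.51, and 6.68%, 4.57 to 9.68). In C4-2BER they included FMN1, TPM1 (tropomyosin, 46 reads at its CpG-rich first promoter) and PARD3 (a cell polarity scaffold, 36 reads). The PARD3 interval overlapped a C4-2B interval 565 bp from the TSS. In C4-2B they included TNS3 and MACF1 (a microtubule-actin crosslinker, 35 reads). The MACF1 interval, which lay 275 bp from the TSS without covering it, overlapped a C4-2BER interval 682 bp from the TSS.

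GTPase, phosphodiesterase and lipid signalling genes had 8 of 77 with a C4-2B-only and 17 with a C4-2BER-only member, or 10 and 22 of 317 promoters (3.15%, 1.72 to 5.71, and 6.94%, 4.63 to 10.3). RGS3, which shortens G protein signalling, had 94 reads at its last promoter in C4-2BER (−log10 q 67.2), with a C4-2B interval 960 bp away. TBC1D30 (37 reads) and RAP1GAP (40 reads), which act on small GTPases, and PDE2A (47 reads), a cyclic nucleotide phosphodiesterase, had CpG-rich C4-2BER-only members. At TBC1D30 and RAP1GAP the member was the canonical start. In C4-2B the members of highest −log10 q were in DGKD (diacylglycerol kinase delta, 41 reads), ACSL6 (42 reads), ADCY5 (adenylyl cyclase, 45 reads) and AKAP7 (26 reads). At ADCY5 the partner held only 11 reads in C4-2B. The intervals in DGKD and ACSL6 did not cover a TSS and lay 108 and 203 bp from the nearest one.

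Kinases and phosphatases had 6 and 11 of 81 genes with a member (2.01%, 0.926 to 4.32, and 4.03%, 2.32 to 6.91, of 298 promoters). PAK1, a kinase downstream of Rac, had 66 reads in C4-2BER (−log10 q 42.6), and PRKG1, the cGMP-dependent kinase, had C4-2BER-only members of 39 and 21 reads on either side of its partner. In C4-2B, the canonical start of PDGFRB had 15 reads, and PIK3R1 had a member of 16, LIMK1 of 14 and MAPK10 of 12.

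Transcription factor genes had 9 and 13 of 79 with a member (3.45%, 1.88 to 6.23, and 4.48%, 2.64 to 7.52, of 290 promoters). In C4-2BER the 4 of highest −log10 q were ETV4 with 83 reads, PRDM1 with 52, ZEB2, a repressor of epithelial genes, with 26, and NPAS3, a factor of the nervous system, with 35 at a CpG-rich first promoter. The NPAS3 partner had 9 reads in C4-2B against 34 in C4-2BER, and that of ZEB2 had 14 and 31. In C4-2B the 4 of highest −log10 q were CBFA2T3, RARB (a retinoic acid receptor, 44 reads), ATF3 (a stress-induced factor, 43 reads) and NR4A1 (an orphan nuclear receptor, 57 reads). The PRDM1 interval overlapped a C4-2B interval 535 bp from the TSS, and a C4-2B interval lay 1034 bp from ETV4. A C4-2BER interval lay 1403 bp from ATF3 and 2220 bp from NR4A1. The ATF3 interval did not cover a TSS and lay 427 bp from the nearest one.

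Genes of axon guidance and neural adhesion had 6 and 8 of 46 with a member (3.95%, 1.93 to 7.94, and 4.52%, 2.31 to 8.66, of 177 promoters). NLGN1, a postsynaptic partner of neurexins, had 41 reads (−log10 q 29.2) in C4-2BER. EPHA7 had 53 there at a CpG-rich promoter (−log10 q 9.69) and EPHA4 had 12 (5.05). In C4-2B, EPHB2 had 48 reads (−log10 q 35.6), SEMA3C 60 (17.0), NRCAM 23 (14.2) and SEMA6A 22 (10.2). The EPHB2 interval, which lay 359 bp from the TSS without covering it, overlapped a C4-2BER interval 754 bp from the TSS. The NRCAM partner had 20 reads in C4-2B against 60 in C4-2BER.

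Of 30 synapse and secretion genes, 5 had a C4-2B-only and 4 a C4-2BER-only member (4.20%, 1.94 to 8.85, and 2.80%, 1.09 to 6.97, of 143 promoters). In C4-2BER, SYT1, the calcium sensor of synaptic vesicle release, had 29 reads at its last promoter (−log10 q 22.5), and its partner had 22 reads in the C4-2B list against 87 in the C4-2BER list. GRIP1 (15 reads) and DLG3 (13 reads) were weak canonical starts. In C4-2B, KCNMA1, a potassium channel gene, had 63 reads in an interval that overlapped a C4-2BER interval 522 bp from the TSS. The KCNMA1 interval did not cover the TSS and lay 214 bp from it. Members of neural genes were thus found in both directions.

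Chromatin and DNA methylation regulators had 4 and 5 of 56 genes with a member (1.83%, 0.713 to 4.60, and 2.74%, 1.26 to 5.85, of 219 promoters). NCOA2, a coactivator of steroid receptors, had 26 reads in C4-2BER, HDAC7 30, KAT6A 21 and NCOA7 17. The KAT6A interval overlapped a C4-2B interval 665 bp from the TSS. NSD1 had 16 reads in C4-2B, SMARCA2 28, EED, a subunit of Polycomb repressive complex 2, 11 and CREBBP 9. All 4 in C4-2B had a −log10 q under 10.

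Of 17 androgen-regulated genes, 2 had a C4-2B-only member, with 20 reads in NDRG1 and 16 in NCAPD3, and 1 had a C4-2BER-only member, with 9 reads in STEAP2. At NDRG1 the partner had 78 reads in C4-2B against 29 in C4-2BER. These were 3 of 48 promoters.

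**Figure D5:**
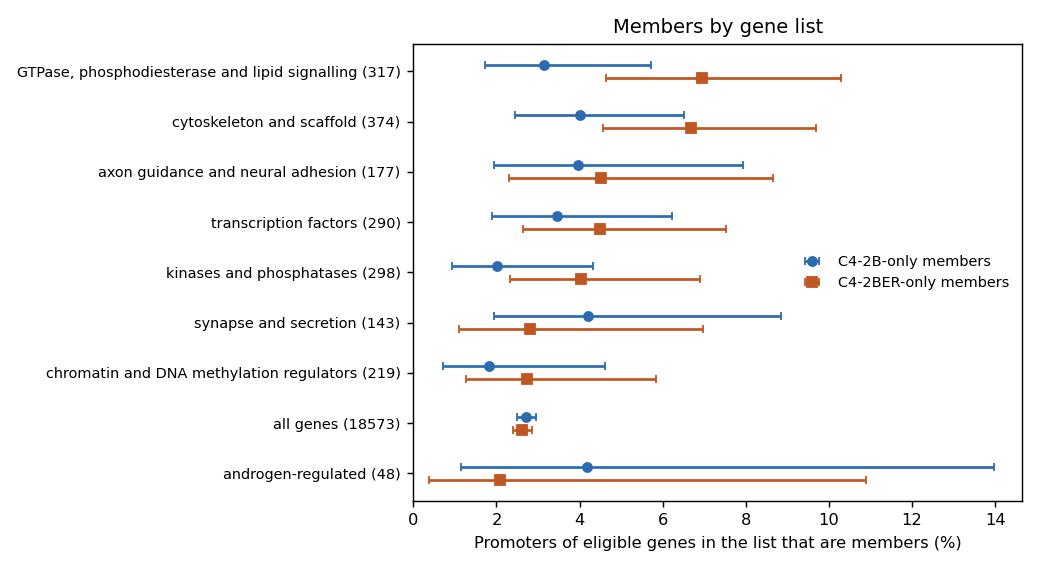
Share of promoters of eligible genes that are members (horizontal axis, %), by gene list and direction, with the number of promoters in brackets and Wilson 95% intervals as bars. The C4-2BER-only share is 6.94% for GTPase, phosphodiesterase and lipid signalling genes and 6.68% for cytoskeleton and scaffold genes, against 2.62% for all genes.

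The surroundings of members were compared with those of other promoters. Between 2000 and 20000 bp from C4-2B-only members, 32.1% (30.0 to 34.3) of C4-2B intervals had no overlap with a C4-2BER interval, against 33.2% around promoters open in both in genes without a member. Around C4-2BER-only members, 17.6% (15.6 to 19.8) of C4-2BER intervals had no overlap with a C4-2B interval, against 16.5%.

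By chromosome, the counts of the directions were closer on most than on those named here. Over the genome, 505 and 487 of 18573 eligible promoters were members. On the X chromosome, with 522 eligible promoters, 7 members were C4-2B-only and 21 C4-2BER-only, so that C4-2B held 25.0% of them (12.7 to 43.4). On chromosome 10 the counts were 12 and 28 of 711 eligible promoters, and on chromosome 11 they were 45 and 29 of 1115. Chromosome 20 had 15 and 7 of 443, and chromosome 22 had 15 and 5 of 435. Among all intervals, 41.0% of C4-2B and 26.2% of C4-2BER intervals on the X were in 1 list only, against 37.7% and 20.8% over the genome. On chromosomes 10, 11, 20 and 22 the shares were 38.9%, 36.8%, 35.6% and 33.6% of C4-2B intervals. Of C4-2BER intervals they were 22.7%, 19.0%, 19.0% and 18.6%. The part of copy number in these counts was not tested.

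Absence from the other list depended on the 500 bp limit at some members. An interval of the other list lay within 1000 bp of a TSS at 15.6% (C4-2B-only) and 14.0% (C4-2BER-only) of members, and within 2000 bp at 28.3% and 31.4%. None lay within 10000 bp at 129 (25.5%) and 101 (20.7%). The strongest interval of the member itself overlapped an interval of the other list, which stopped short of the window, at 44 and 27 members. Just inside the limit, the member's own interval was 401 to 500 bp from the nearest TSS at 84 and 46 members. Just outside, an interval of the other list was 501 to 600 bp from a TSS at 33 and 28 members.

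The weakest members were close to the calling limit. PCDHA11 (9 reads, −log10 q 1.52), CDK17 (8 reads, 1.66) and GNAO1 (17 reads, 1.68) were the lowest in C4-2B. GRB10 (12 reads, 1.38), CNTN1 (7 reads, 1.44) and STEAP2 (9 reads, 1.45) were the lowest in C4-2BER. Members with a −log10 q of 10 or more numbered 225 in the C4-2B direction (44.6%) and 215 in the C4-2BER direction (44.1%), so more than 50% in either were weaker than that.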

How the data were processed

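ATAC-seq of C4-2B and C4-2BER cells (2 libraries each) was used as the deposited peak lists, 1 merged list per line. Per the methods of the study, trimmed read pairs were mapped to hg38 by Bowtie2, filtered at a mapping quality of 10, freed of duplicates with Picard and merged, and macs2 called peaks without a model, with reads shifted and extended to 200 bp. The methods print a shift of 100 bp with no sign, and summit positions, motif windows and interval edges depend on that sign. The submitters' processing notes also name FastQC and bedtools 2.17. The macs2 version was not given in the sources used here. Merging removes the spread between libraries, and the difference in depth lets weaker sites be called in C4-2B.

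The deposited fold enrichment is a ratio of summit reads to local background, each raised by 1. Both −log10 p and −log10 q, as deposited, belong to the summit, and the q-values of the lists were adjusted separately. The deposited score, a rescaled q-value, was not used. The remaining deposited column gives the summit offset in bp. Reads at each summit were recovered as the whole number that solves fold and Poisson −log10 p together (100% of summits, largest error in −log10 p 0.000251 for C4-2B and 0.000259 for C4-2BER, tested on 11527 simulated summits with 100% recovered). Depth assumes a genome size of 2700000000 bp, and its ratio does not. Summits sharing an interval were counted once, with the values of the one of highest −log10 p.

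TSSs of 89054 protein-coding transcripts came from GENCODE release 44. The main TSS of a promoter was that of the canonical transcript, otherwise the one with most transcripts. Analyses used Python 3.11.15, pandas 2.3.3, scipy 1.17.1 and pysam 0.24.0. The members and lists were chosen with earlier results of these data known. Shares carry Wilson 95% intervals, which cover counting error only. Promoters of a gene are not replicates, and with 1 list per line there was no test, SD or p-value. Named singly are the 10 members per direction of highest −log10 q with no interval of the other list within 2000 bp, the 10 genes with both directions whose weaker direction had the highest −log10 q, and up to 4 members per gene list and direction. Sequences are those of the first 4 such members per direction that were free of exons and not on chromosome 8. Some genes, 1 gene list and some sequences that this rule picks were left out. Genes outside this rule are marked as named after their values were seen. The alternatives changed the q threshold, number of peaks, depth, window, joining distance, transcript set, summit rule and distance to the other list.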

Additional observations from a re-analysis of the deposited data

How the results depend on the processing

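No paired analysis was possible because each list pools the libraries of its line and its columns carry no replicate number. For the same reason leaving out a replicate was not run. Each of 80 alternative values was compared with the reported one, and 51 stayed within 1.5 times a count or inside the 95% interval of a share.

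The numbers of members depended on the calling limit and on the transcript set. With only basic transcripts of support level 1, 67 C4-2B-only and 118 C4-2BER-only members were left, and no gene (0) had both directions. With equal numbers of top peaks there were 322 C4-2B-only and 592 C4-2BER-only members. With a −log10 q of at least 10 in both lists there were 450 and 320, so the larger direction turned between these settings, and 21 genes had both directions. Requiring that −log10 q of the member alone left 225, 215 and 8. With TSSs joined within 5000 bp, 23 genes had both directions, and with no interval of the other list within 2000 bp, 13 had.

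Chosen after seeing the data were 2 further settings. Where the interval had to cover a TSS, there were 194 C4-2B-only and 313 C4-2BER-only members and 8 genes with both directions. Where a −log10 q of at least 10 and no interval of the other list within 2000 bp were also required, there were 74, 110 and 0.

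The CpG-rich share of C4-2BER-only members was 35.0% at a −log10 q of at least 10 in both lists, 35.3% at strong members, 32.3% where the interval covered a TSS, 38.2% where all 3 requirements were set and 22.5% with a window of 1000 bp. That of C4-2B-only members was 1.35% under all 3 requirements. The upstream share of C4-2BER-only members was 41.6%, 42.3% and 42.2% under the first 3 of these settings. The forkhead share of C4-2B-only members was 11.1% at a −log10 q of at least 10 in both lists, and with a motif window of 250 bp it was 11.1%, against 7.60% for C4-2BER-only members. The cause of these shifts was not tested. In each setting run for shares, C4-2BER-only members had the higher CpG-rich and upstream shares and C4-2B-only members the higher forkhead share.

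The lists end at a −log10 q of 1.30, which is set against the local background, so the limit is not a fixed number of reads. The lowest called summits had 8 reads (C4-2B) and 7 reads (C4-2BER), but GNAO1 with 17 reads in C4-2B had a −log10 q of 1.68. Weak members cannot be told from sites just missed in the other line. The Wilson intervals leave out the spread between cultures, which these merged lists do not hold.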
